A study of Mus musculus with 8 samples.

Results

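Genes that mark regulatory T cells, together with the enzymes that make extracellular adenosine, were followed in mouse CD4 T cells kept in Th17 culture. The set was 10 genes named by symbol (Foxp3, Ikzf2, Ikzf4, Entpd1, Nt5e, Izumo1r, Gpr83, Lrrc32, Nrp1 and Itgae), taken with every probe set that the array annotation gives to that symbol alone. This found 22 probe sets of 9 genes, out of 45037 probe sets and 18193 named genes on the array. Lrrc32, whose product GARP anchors latent TGF-β on the cell surface, was not analysed here, since no probe set carried its symbol alone.

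Total RNA of 8 samples was hybridised, each to a GeneChip Mouse Genome 430 2.0 array, with 2 arrays in each of 4 groups. The groups were RORγt-deficient cells with digoxin, RORγt-deficient cells with DMSO, wildtype cells with digoxin and wildtype cells with DMSO. All 4 groups began as sorted naive CD4 T cells from C57BL/6 mice, stimulated through CD3 and CD28 and held under Th17-polarising conditions for 48 h. RORγt is the nuclear receptor that directs Th17 differentiation, digoxin is a cardiac glycoside that blocks the Na,K-ATPase, and DMSO is its solvent. The sources used here do not give the mutant allele, the age or sex of the mice, or the dose of digoxin. Replicates are labelled biological, but no label ties them to separate mice or cultures, and a p-value here reflects array-to-array spread that may in part be technical.

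Every deposited value is on the log2 scale and relative to the wildtype DMSO pair, which averages 0 for each probe set with no absolute level left. The binary precision of the deposited numbers still shows in which range the lowest array level of a probe set lay before centring. Of the 9 probe sets of the T cell markers Cd3d, Cd3e, Cd3g, Cd4, Cd5, Cd28 and Thy1, all 9 lay at 8 or above on the log2 scale. Of the 32 probe sets of CD8 T cell, B cell, myeloid and dendritic, NK, gamma delta T cell and erythroid markers, 0 did. Il17a, the signature cytokine of Th17 cells, was lower in RORγt-deficient DMSO cells than in wildtype DMSO cells by a log2 difference of -2.11 ± 0.12 (SE; limma adjusted p = 0.000319). With digoxin it was also lower, by -2.39 ± 0.12 in wildtype cells and -1.88 ± 0.12 in deficient cells (limma adjusted p = 0.000189 and 0.00185). A low Il17a value thus does not by itself mark genotype. Genotype could not be checked on RORγt itself, whose gene was not analysed here.

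Regulatory T cells restrain immune responses, and the transcription factor Foxp3 directs their program with partners such as Helios (Ikzf2) and Eos (Ikzf4). They share with Th17 cells a dependence on TGF-β for differentiation from naive CD4 T cells. CD39 (Entpd1) converts extracellular ATP and ADP to AMP and CD73 (Nt5e) converts AMP to adenosine, which acts on T cells through adenosine receptors. Folate receptor 4 (Izumo1r), the G protein-coupled receptor Gpr83, neuropilin-1 (Nrp1) and the integrin chain CD103 (Itgae) are surface proteins enriched on regulatory T cells or their subsets.

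The promoters of 6 of the 10 genes, with 8 start sites, were found in the RefSeq promoter table (GRCm38.p6). Shown here are the 250 bases before the start of the 3 genes on chromosome 9 that stood higher in 3 of the 4 groups, and of Foxp3, which did not. Each is written 5′ to 3′ on the strand of the gene. Capitals mark AGGTCA, a hexamer bound by ROR receptors, or TGTGGT, the core of RUNX sites, on either strand.

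Nt5e, chr9:88327359-88327608, plus strand: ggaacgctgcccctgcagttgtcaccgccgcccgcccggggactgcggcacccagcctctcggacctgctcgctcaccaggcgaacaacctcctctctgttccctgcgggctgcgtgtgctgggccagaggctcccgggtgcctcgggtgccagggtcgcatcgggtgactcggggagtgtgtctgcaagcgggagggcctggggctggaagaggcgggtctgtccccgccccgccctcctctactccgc

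Gpr83, chr9:14859960-14860209, plus strand: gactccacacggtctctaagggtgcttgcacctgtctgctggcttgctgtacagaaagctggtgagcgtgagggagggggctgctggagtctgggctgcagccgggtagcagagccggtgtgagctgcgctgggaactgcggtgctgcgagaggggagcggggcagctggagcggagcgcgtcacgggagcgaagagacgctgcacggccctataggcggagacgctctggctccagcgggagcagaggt

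Izumo1r, chr9:14903768-14904017, minus strand: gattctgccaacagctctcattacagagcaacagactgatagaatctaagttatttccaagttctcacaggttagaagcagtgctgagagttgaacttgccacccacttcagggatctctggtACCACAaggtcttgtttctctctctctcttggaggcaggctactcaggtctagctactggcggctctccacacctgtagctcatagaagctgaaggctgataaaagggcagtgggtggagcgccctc

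Foxp3, chrX:7580233-7580482, plus strand: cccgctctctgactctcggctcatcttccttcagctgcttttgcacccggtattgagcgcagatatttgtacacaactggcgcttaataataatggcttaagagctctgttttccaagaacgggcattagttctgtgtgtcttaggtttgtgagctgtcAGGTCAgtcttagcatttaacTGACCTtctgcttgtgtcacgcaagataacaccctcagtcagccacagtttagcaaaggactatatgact

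The windows differed in composition, with 72.0% G and C for Nt5e, 66.8% for Gpr83, 50.0% for Izumo1r and 46.0% for this Foxp3 start. AGGTCA was found 2 times before this Foxp3 start, 91 and 70 bases upstream counted to the first base of each match, and 1 time before the Nrp1 start. It was not found in the windows of Nt5e, Gpr83 and Izumo1r, in either Entpd1 window or before the other Foxp3 start. AGGTCA occurred in 4607 of the 32851 promoter windows of this length. TGTGGT was found 1 time, 127 bases before the Izumo1r start, and in 4614 of all windows. The forkhead motif GTAAACA (3.17% of all windows) and the E-box CACGTG (6.02%) were searched on both strands and were in none of these windows, 0 of 8. No matches overlapped, and a match or its absence is a description of these letters only.

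Nt5e, which encodes CD73, was the gene of the set whose difference passed the test. Its probe set 1428547_at stood at 0.70 and 0.53 in RORγt-deficient DMSO cells, against 0.045 and -0.045 in wildtype DMSO cells. Both deficient arrays lay above both wildtype arrays. The log2 difference was 0.62 ± 0.11 (SE, n = 2 arrays per group), a 1.54-fold rise, with a limma adjusted p = 0.0408 over all 45037 probe sets. In wildtype cells with digoxin the same probe set stood at 0.38 and 0.31, which is 0.34 ± 0.11 above wildtype DMSO (limma adjusted p = 0.664). In RORγt-deficient cells with digoxin it stood at 0.56 and 0.52, or -0.077 ± 0.11 relative to deficient cells in DMSO, with groups that overlapped. The call for RORγt deficiency was lost without each of the 8 arrays in turn, with adjusted p from 0.0518 to 0.321 and differences from 0.53 to 0.70.

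The second Nt5e probe set, 1422974_at, gave 0.46 and 0.44 in RORγt-deficient DMSO cells, against -0.061 and 0.061 in wildtype DMSO cells. Its difference of 0.45 ± 0.11 was not called (limma adjusted p = 0.13). With digoxin it stood at 0.35 and 0.40 in wildtype cells and at 0.44 and 0.51 in RORγt-deficient cells. All 6 arrays with RORγt deficiency, digoxin or both were thus above the wildtype DMSO pair for both of these probe sets. The third, 1459023_at, ranged from -0.12 to 0.19 over all arrays, and its difference for RORγt deficiency in DMSO was 0.042 ± 0.12.

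Entpd1, which encodes CD39 and acts one step before CD73, stood highest in wildtype cells with digoxin in 2 of its 3 probe sets. Probe set 1423326_at stood at 0.70 and 0.61 in wildtype digoxin cells, against 0.066 and -0.066 in wildtype DMSO cells. The groups did not overlap, and the difference of 0.66 ± 0.13 was not called over all probe sets (limma adjusted p = 0.181). In RORγt-deficient cells it stood at 0.47 and 0.19 with digoxin, against -0.037 and 0.11 with DMSO, a difference of 0.29 ± 0.13 (adjusted p = 1). RORγt deficiency in DMSO gave 0.036 ± 0.13. The order of the group means was wildtype digoxin (0.66), RORγt-deficient digoxin (0.33), RORγt-deficient DMSO (0.036) and wildtype DMSO, with the last pair overlapping.

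A second Entpd1 probe set, 1450939_at, whose lowest level lay at 8 or above, gave 0.31 and 0.32 in wildtype digoxin cells, against -0.031 and 0.031 in wildtype DMSO cells. In RORγt-deficient cells it stood at 0.21 and 0.17 with digoxin, against 0.025 and -0.34 with DMSO. The digoxin differences were 0.31 ± 0.13 in wildtype and 0.35 ± 0.13 in deficient cells, neither called (limma adjusted p = 0.766 and 1). The third probe set, 1453586_at, lay in the lowest range, between 2 and 4, and had another order. Its mean was 0.16 in RORγt-deficient digoxin cells, 0.18 in RORγt-deficient DMSO cells and 0.10 in wildtype digoxin cells.

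**Figure D1:**
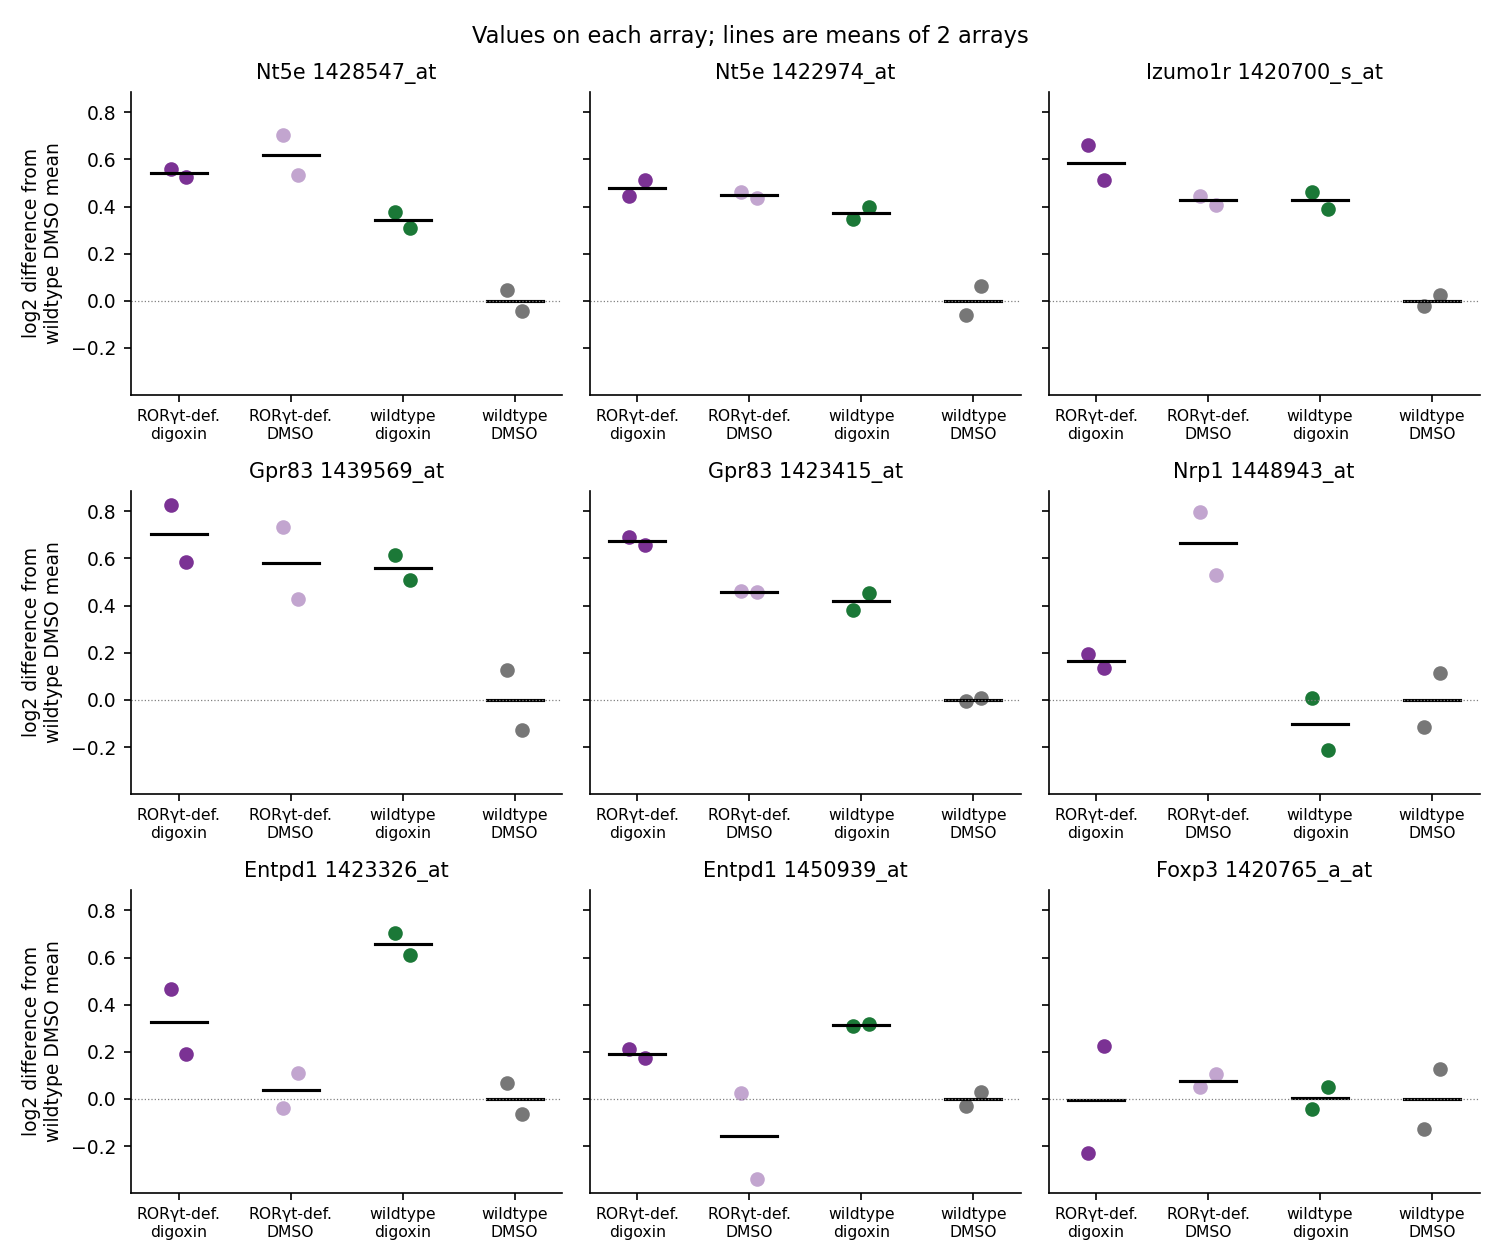
Each point is 1 array and each line the mean of 2 arrays, as a log2 difference from the wildtype DMSO mean, for 9 probe sets of 6 genes in the 4 groups. For each gene, the probe sets with the widest spread of group means are shown. In these, the wildtype DMSO arrays lie below the other 6 for Nt5e, Izumo1r and Gpr83, and Entpd1 is highest in wildtype digoxin cells. Nrp1 probe set 1448943_at is highest in RORγt-deficient DMSO cells, and the Foxp3 groups overlap. Nt5e 1459023_at and Entpd1 1453586_at, not shown, do not have the pattern of their genes here.

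Gpr83 and Izumo1r stood higher in all 3 other groups than in wildtype DMSO cells, though none of their differences was called. Gpr83 probe set 1423415_at had 0.46 and 0.46 in RORγt-deficient DMSO cells and 0.38 and 0.45 in wildtype digoxin cells, against -0.0059 and 0.0059 in wildtype DMSO cells. RORγt-deficient digoxin cells had the highest pair, 0.69 and 0.66. The difference was 0.46 ± 0.10 for RORγt deficiency in DMSO (limma adjusted p = 0.106) and 0.42 ± 0.10 for digoxin in wildtype cells (adjusted p = 0.397). Within deficient cells digoxin gave 0.22 ± 0.10, and under digoxin RORγt deficiency gave 0.26 ± 0.10 (adjusted p = 1 for both), with no overlap between the groups in either.

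The other Gpr83 probe set, 1439569_at, was more spread within groups. It stood at 0.83 and 0.58 in RORγt-deficient digoxin cells, at 0.73 and 0.43 in RORγt-deficient DMSO cells and at 0.61 and 0.51 in wildtype digoxin cells, against 0.13 and -0.13 in wildtype DMSO cells. Here the first 3 groups overlapped one another and only the wildtype DMSO pair stood apart. The differences from wildtype DMSO were 0.58 ± 0.15 for RORγt deficiency and 0.56 ± 0.15 for digoxin (limma adjusted p = 0.171 and 0.47).

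Izumo1r, also known as folate receptor 4, had 0.45 and 0.41 in RORγt-deficient DMSO cells and 0.46 and 0.39 in wildtype digoxin cells, against -0.023 and 0.023 in wildtype DMSO cells. RORγt-deficient digoxin cells had 0.66 and 0.51. Its 1 probe set, 1420700_s_at, gave the same rounded difference for RORγt deficiency in DMSO and for digoxin in wildtype cells, 0.43 ± 0.11 each (limma adjusted p = 0.166 and 0.423). Both comparisons share the wildtype DMSO arrays, so they are not independent of each other. These RNA samples are of whole cultures, in which more cells that express a gene and more RNA per cell cannot be told apart.

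Gpr83 and Izumo1r are adjacent among the measured genes of chromosome 9, and the genes around them had other values. Mre11a, which encodes a DNA repair nuclease and is next to Gpr83 on its other side, had differences of -0.22 ± 0.12 and -0.18 ± 0.13 for RORγt deficiency in DMSO. Panx1, a channel protein gene next to Izumo1r on its other side, stood at -0.18 ± 0.12. Further out, 1700012B09Rik (0.19), Ankrd49 (-0.072), Hephl1 (0.14) and Vstm5 (0.14) were not called either. Nt5e lies on the same chromosome but next to Tbx18 and Snx14, and its 6 nearest measured genes had differences from -0.53 to 0.092 over 15 probe sets, none called.

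**Figure D2:**
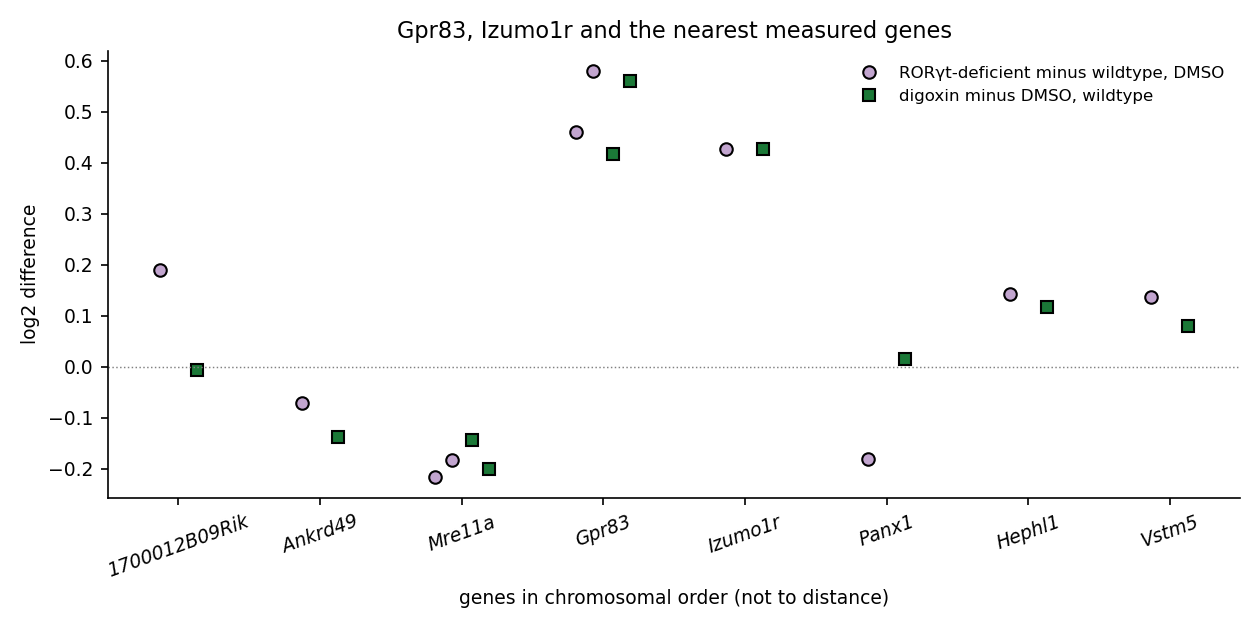
Points are the log2 differences of single probe sets for RORγt deficiency in DMSO (circles) and digoxin in wildtype cells (squares), for Gpr83, Izumo1r and the nearest measured genes in chromosomal order. Gpr83 and Izumo1r lie between 0.42 and 0.58, and the 6 genes around them between -0.22 and 0.19.

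Nrp1, the gene of neuropilin-1, a co-receptor for semaphorins and VEGF, gave values that differed between its 4 probe sets. Probe set 1448943_at stood at 0.80 and 0.53 in RORγt-deficient DMSO cells, against -0.12 and 0.12 in wildtype DMSO cells. With digoxin it stood at 0.20 and 0.13 in RORγt-deficient cells and 0.0074 and -0.21 in wildtype cells. RORγt deficiency in DMSO gave 0.66 ± 0.14 (limma adjusted p = 0.082), and digoxin in deficient cells gave -0.50 ± 0.14 (adjusted p = 1), neither called. Probe set 1457198_at instead had 0.68 and 0.49 in RORγt-deficient digoxin cells, 0.36 and 0.39 in RORγt-deficient DMSO cells and 0.44 and 0.39 in wildtype digoxin cells, against 0.13 and -0.13 in wildtype DMSO cells. The remaining probe sets, 1418084_at and 1448944_at, had differences of 0.052 ± 0.14 and -0.0051 ± 0.14 for RORγt deficiency in DMSO, although the annotation gives both the same source transcript as 1448943_at.

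Itgae, which encodes the integrin chain that pairs with β7 and binds E-cadherin, had 2 probe sets. Probe set 1447541_s_at lay in the lowest range and stood at 0.29 and 0.45 in RORγt-deficient digoxin cells, against -0.021 and 0.12 in RORγt-deficient DMSO cells. That difference of 0.32 ± 0.13 was not called (limma adjusted p = 1), and the 2 wildtype digoxin arrays split to -0.0030 and 0.34. Probe set 1449216_at ranged from -0.094 to 0.054 over all 8 arrays.

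No difference was called for the transcription factor genes of the regulatory program. Foxp3 stood at -0.23 and 0.22 in RORγt-deficient digoxin cells, 0.050 and 0.10 in RORγt-deficient DMSO cells and -0.043 and 0.050 in wildtype digoxin cells, against -0.13 and 0.13 in wildtype DMSO cells. Each group overlapped the wildtype DMSO pair. RORγt deficiency in DMSO gave 0.077 ± 0.16 (95% interval -0.27 to 0.42, limma adjusted p = 0.925) and digoxin in wildtype cells 0.0033 ± 0.16 (-0.34 to 0.35, adjusted p = 0.998). The lowest level of this 1 probe set lay between 2 and 4, the bottom range of the array, which 33.7% of probe sets shared.

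Ikzf2, the Helios gene, was measured by 3 probe sets with differences from -0.043 to 0.026 for RORγt deficiency in DMSO. Its brightest, 1437542_at, with a lowest level at 8 or above, varied between -0.043 and 0.085 over the 8 arrays. Ikzf4, the Eos gene, gave 0.19 ± 0.11 for RORγt deficiency in DMSO and 0.20 ± 0.11 for digoxin in wildtype cells with probe set 1460664_at (limma adjusted p = 0.672 and 0.803). That probe set stood at 0.19 and 0.19 in RORγt-deficient DMSO cells and 0.25 and 0.15 in wildtype digoxin cells, against 0.086 and -0.086 in wildtype DMSO cells, without overlap. RORγt-deficient digoxin cells had 0.21 and 0.31, also above the wildtype DMSO pair. The other Ikzf4 probe sets, 1438274_at and 1457342_at, had differences of -0.0032 and 0.077 for RORγt deficiency in DMSO. For digoxin in wildtype cells they had 0.0029 and -0.14. Probe set 1457342_at, whose lowest level lay at 8 or above, was thus lower with digoxin, without overlap. In RORγt-deficient cells it was lower by -0.19, again without overlap, and neither difference was called.

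**Figure D3:**
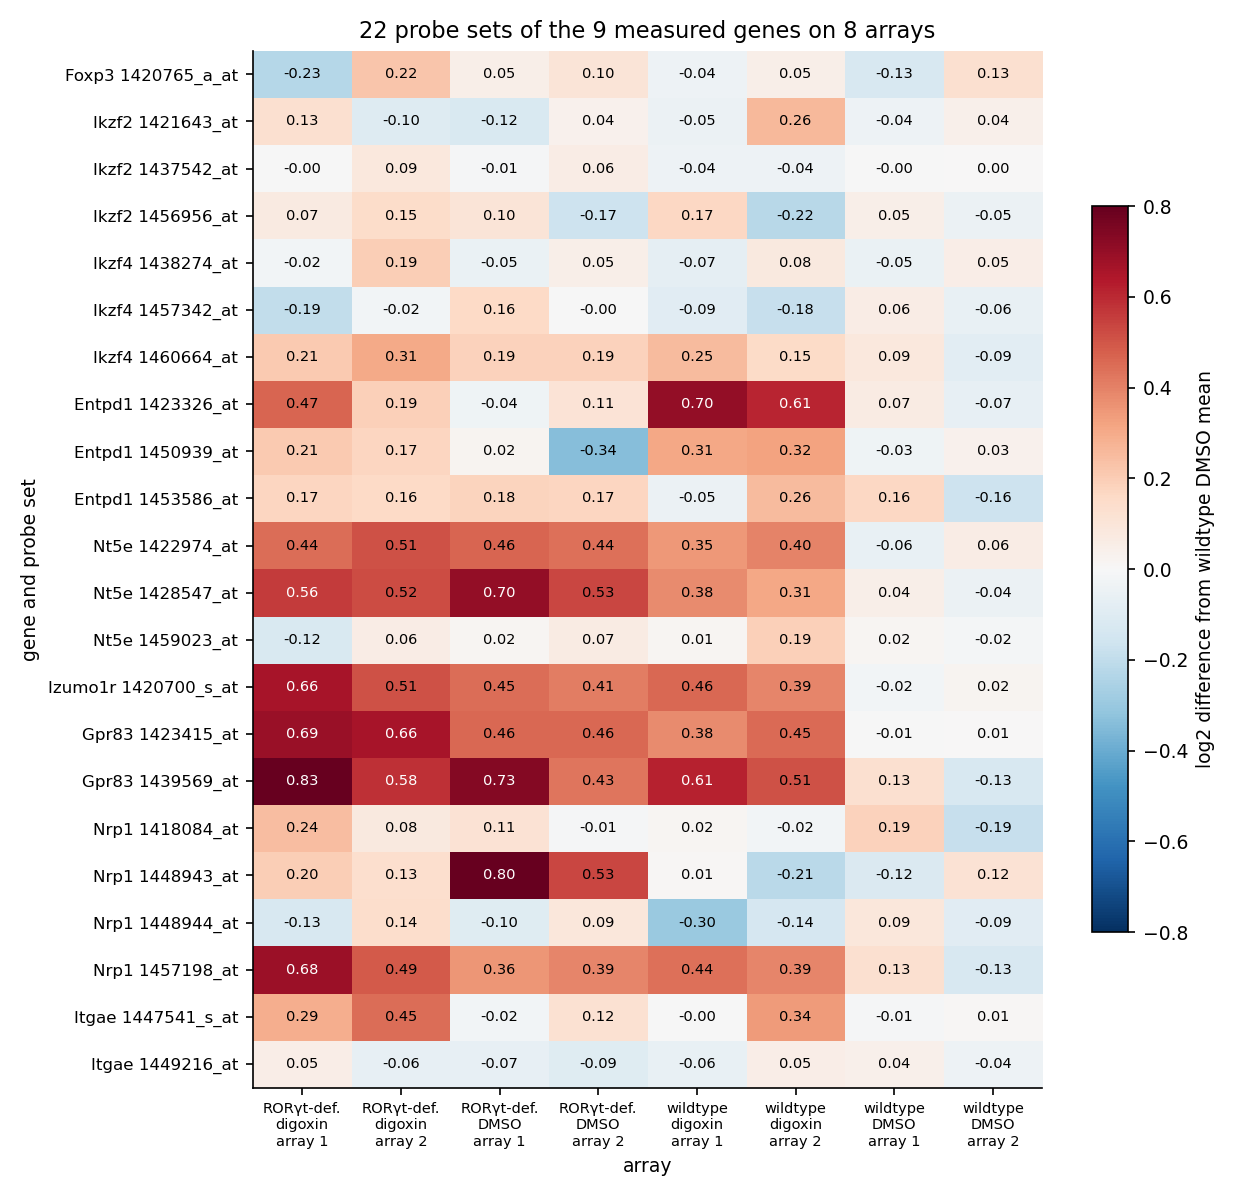
Rows are the 22 probe sets, columns the 8 arrays in 4 groups, and each cell is the log2 difference from the wildtype DMSO mean. Nt5e (2 of 3 probe sets), Izumo1r, Gpr83, Nrp1 1457198_at and Ikzf4 1460664_at are above the wildtype DMSO arrays on the other 6. Foxp3 and Ikzf2 show no such block.

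For RORγt deficiency in DMSO, limma called 1 of the 22 probe sets, beside 0.611% of all probe sets in either direction. At an unadjusted p under 0.05, 7 of the 22 were higher (31.8%), beside 3.9% of all probe sets, and 0 of the 22 were lower, beside 5.16% of all. Groups did not overlap, with the deficient arrays higher, for 9 of the 22 (40.9%), beside 20.2% of all probe sets, and with them lower for 1, beside 20.1% of all. Probe sets of the same gene are not independent of each other. The median difference was 0.064 over the 22 and 0.0086 over all probe sets.

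For digoxin in wildtype cells, 0 of the 22 were called, beside 0.0622% of all probe sets (limma, smallest adjusted p = 0.181). At an unadjusted p under 0.05, 8 of the 22 were higher (36.4%) and 0 lower, beside 3.17% of all probe sets higher and 3.1% lower. The digoxin arrays were all higher, without overlap, for 9 of the 22, beside 18.7% of all, and all lower for 3, beside 17.9% of all. The median difference was 0.10 over the 22 and 0.0096 over all.

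**Figure D4:**
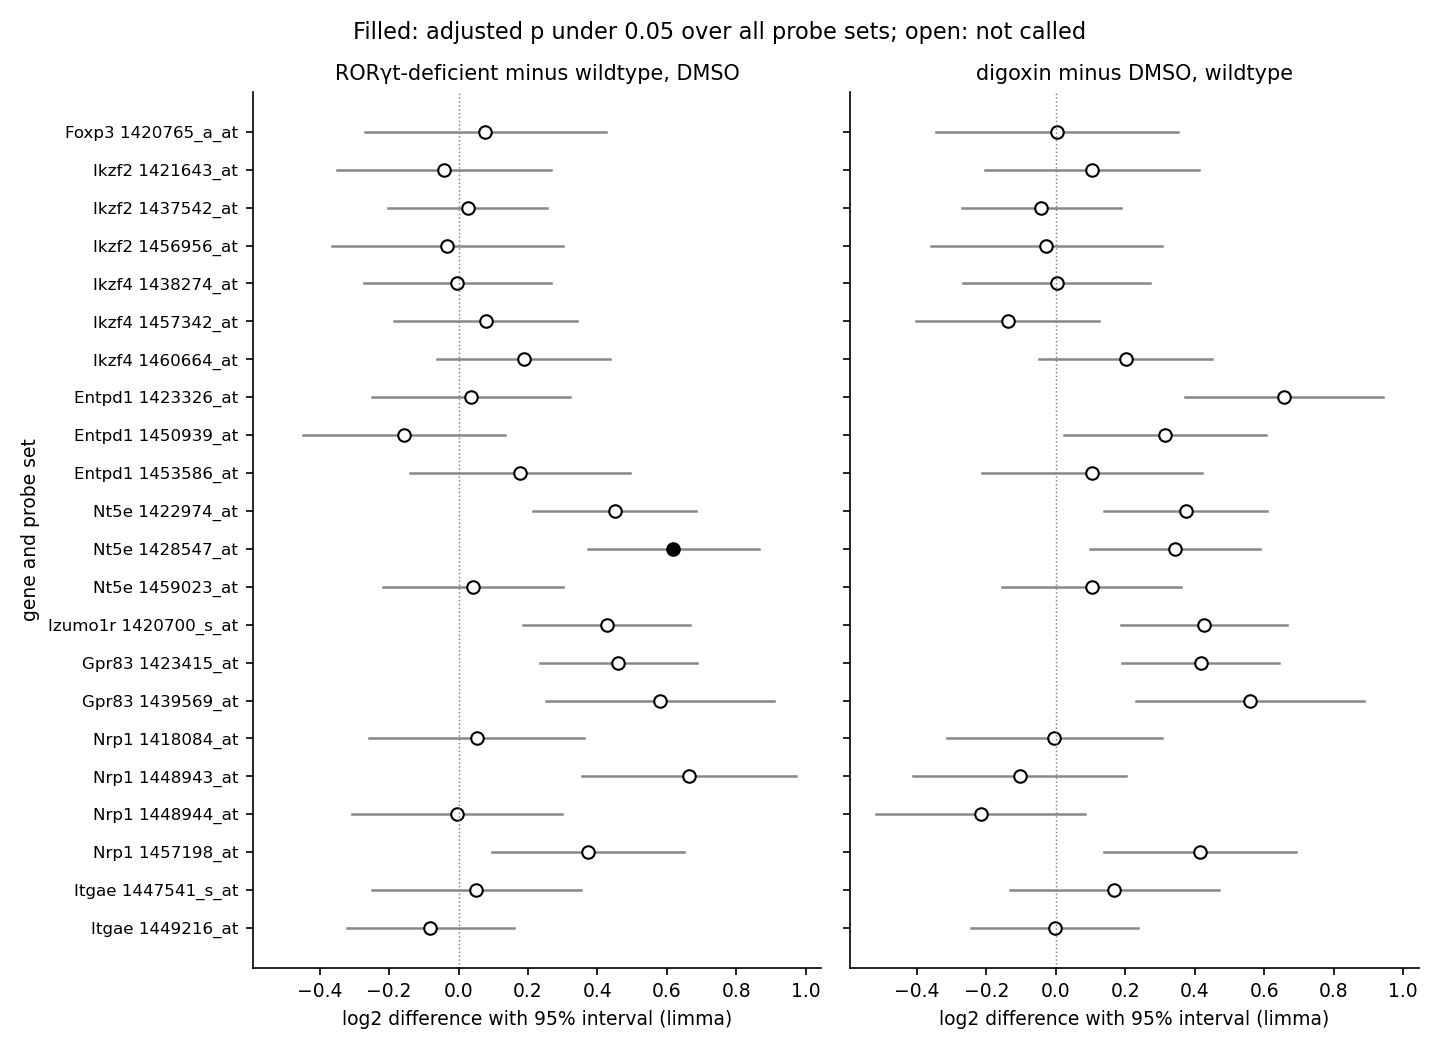
Points are log2 differences and lines their 95% limma intervals, unadjusted for the number of probe sets, for RORγt deficiency in DMSO (left) and digoxin in wildtype cells (right). The filled point, Nt5e 1428547_at at 0.62, is the only one called in either panel, and the intervals of 2 Entpd1 probe sets lie above 0 for digoxin and span 0 for RORγt deficiency.

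Digoxin in RORγt-deficient cells gave 0 calls among the 22, beside 0.00222% of all probe sets. At an unadjusted p under 0.05, 3 of the 22 were higher and 1 was lower, beside 2.16% and 1.25% of all. The groups did not overlap, with digoxin higher, for 8 of the 22 (36.4%), beside 16.5% of all, and with digoxin lower for 3, beside 11.7% of all. RORγt deficiency under digoxin also gave 0 calls, beside 0.00222% of all, and 1 higher and 1 lower of the 22 unadjusted, beside 2.4% and 2.36% of all. Without overlap, 9 of the 22 were higher and 2 lower, beside 16.8% and 13.4% of all. The test of whether the digoxin effect differed between RORγt-deficient and wildtype cells called none of the 22 and none of all probe sets (0%, smallest limma adjusted p = 0.137, with 1253 at an unadjusted p under 0.05). Unadjusted, 0 of the 22 were higher and 2 lower, beside 1.46% and 1.32% of all. The largest estimates of that test among the 22 were -0.43 ± 0.21 for Gpr83 1439569_at, -0.42 ± 0.16 for Nt5e 1428547_at, -0.39 ± 0.19 for Nrp1 1448943_at and -0.37 ± 0.18 for Entpd1 1423326_at, all at a limma adjusted p = 1. Nt5e is the member for which this estimate had unadjusted p under 0.05, 0.0426 and 0.0222 for 2 of its probe sets.

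T cell markers stood higher in the same groups as Nt5e, Gpr83 and Izumo1r. The mean of their 9 probe sets was 0.28 and 0.24 in RORγt-deficient digoxin cells, 0.25 and 0.24 in RORγt-deficient DMSO cells and 0.18 and 0.15 in wildtype digoxin cells, against -0.078 and 0.078 in wildtype DMSO cells. Cd3g and Cd3e, chains of the T cell receptor complex, stood at 0.43 ± 0.12 and 0.34 ± 0.11 for RORγt deficiency in DMSO, and 0 of the 9 probe sets were called. The markers of other cells gave 0 calls in all 5 comparisons. Their mean over CD8 T cell probe sets was 0.14 and 0.12 in RORγt-deficient DMSO cells, against 0.075 and -0.075 in wildtype DMSO cells. On both RORγt-deficient digoxin arrays the mean of every list of other cells was above 0. It was 0.14 and 0.27 for myeloid and dendritic markers, against -0.0078 and 0.0078 in wildtype DMSO cells. For NK markers it was 0.13 and 0.34, against 0.0065 and -0.0065. B cell markers had 0.096 and 0.098, which overlapped the 0.102 and -0.102 of wildtype DMSO cells. Gamma delta T cell markers overlapped wildtype DMSO cells as well. A mean above wildtype DMSO was thus not particular to T cell markers in that group, though some lists overlapped. The part of these shifts in the values of Nt5e, Gpr83 and Izumo1r was not tested.

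Related genes were counted over lists of the same pathways. Surface and effector genes of regulatory T cells had 32 probe sets of 21 genes. Their medians were 0.13 for RORγt deficiency in DMSO and 0.0088 for digoxin in wildtype cells. At an unadjusted p under 0.05, 7 were higher and 0 lower for RORγt deficiency, beside 3.9% and 5.16% of all probe sets. For digoxin, 7 were higher and 3 lower, beside 3.17% and 3.1% of all. Limma called 2 for RORγt deficiency and 2 for digoxin, all higher, beside 0.611% and 0.0622% of all. They were Il10, an immunoregulatory cytokine gene (1.45 ± 0.14 and 1.33 ± 0.14, limma adjusted p = 0.00434 and 0.00982), and Gzmb, the granzyme B gene (1.05 ± 0.11 and 0.83 ± 0.11, adjusted p = 0.00534 and 0.0409), which effector T cells also express. For RORγt deficiency both calls were lost without either wildtype DMSO array (adjusted p from 0.051 to 0.08), that of Gzmb also without RORγt-deficient DMSO array 2 (0.0517). For digoxin the Gzmb call was lost without any 1 array (0.066 to 0.404), and that of Il10 without either wildtype DMSO array or wildtype digoxin array 1 (0.0918 to 0.155). Il2ra, the high-affinity interleukin 2 receptor chain CD25, stood at 0.52 ± 0.11 for RORγt deficiency (limma adjusted p = 0.0795), and Fgl2, a secreted suppressive protein, at 1.01 ± 0.22 (adjusted p = 0.102). The other Il2ra and Fgl2 probe sets stood at 0.23 and 0.64, not called. Some genes of the list were lower, with Cd83 at -0.25, Ctla4 at -0.17 and Tnfrsf18 at -0.11 for RORγt deficiency. For digoxin in wildtype cells Cd83 stood at -0.56 and Ctla4 at -0.26, and none of these was called.

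Regulators and partners of Foxp3 (69 probe sets of 26 genes) had 0 limma calls in each comparison and a median of 0.056 for RORγt deficiency in DMSO, where 5 were higher and 7 lower at an unadjusted p under 0.05, beside 3.9% and 5.16% of all probe sets. Satb1, a chromatin organiser, stood at 0.56 ± 0.13, the DNA methyltransferase gene Dnmt1 at -0.46 ± 0.12 and its partner Uhrf1 at -0.59 ± 0.15 (limma adjusted p = 0.121, 0.177 and 0.196). Each is the probe set of its gene furthest from 0. The others ranged from 0.20 to 0.41 for Satb1, and stood at -0.30 and -0.33 for Dnmt1 and -0.41 for Uhrf1.

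Adenosine and ATP handling was covered by 56 probe sets of 26 genes. Of these, 1 was called for RORγt deficiency in DMSO and 0 for digoxin in wildtype cells, beside 0.611% and 0.0622% of all. At an unadjusted p under 0.05, 3 were higher and 7 lower for RORγt deficiency, beside 3.9% and 5.16% of all, and 1 was higher and 2 lower for digoxin, beside 3.17% and 3.1% of all. The called one was a probe set of Bst1, which encodes the NAD-cleaving ectoenzyme CD157, at 0.85 ± 0.15 (limma adjusted p = 0.0393). For digoxin the same probe set stood at 0.73 ± 0.15 (limma adjusted p = 0.223). The other Bst1 probe set stood at 0.22 for RORγt deficiency and 0.040 for digoxin, neither called. The Bst1 call was lost without any 1 DMSO array or RORγt-deficient digoxin array (adjusted p from 0.0623 to 0.317). Ada, the adenosine deaminase gene, stood at -0.51 ± 0.13 and P2rx7, an ATP-gated channel gene, at -0.49 ± 0.12 for RORγt deficiency (adjusted p = 0.162 and 0.161). The other P2rx7 probe sets stood at -0.47 and 0.097, not called. Entpd5, a relative of CD39 found inside cells, stood at -0.43 ± 0.11 in its lowest probe set (adjusted p = 0.17). Its other probe sets ranged from -0.42 to 0.010, none called. The list median was -0.022.

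TGF-β activation and integrins were covered by 60 probe sets of 24 genes. At an unadjusted p under 0.05, 5 were higher and 1 lower for RORγt deficiency in DMSO, beside 3.9% and 5.16% of all. For digoxin in wildtype cells, 0 were higher and 3 lower, beside 3.17% and 3.1% of all. Limma called 1 for RORγt deficiency in DMSO, beside 0.611% of all probe sets. It was Furin, the convertase that cleaves the TGF-β precursor, lower by a log2 difference of -1.0 ± 0.17 (limma adjusted p = 0.0365), with -1.11 ± 0.17 for digoxin in wildtype cells (adjusted p = 0.079). The Furin call was lost without either wildtype DMSO array, RORγt-deficient DMSO array 2 or either RORγt-deficient digoxin array (adjusted p from 0.0982 to 0.264). A list of neuropilin ligands and co-receptors with further semaphorin and plexin genes (36 probe sets of 17 genes) had 0 calls. For RORγt deficiency in DMSO, 2 were higher and 2 lower at an unadjusted p under 0.05, beside the same 3.9% and 5.16% of all. Sema4d, one of the further semaphorin genes, stood at 0.52 ± 0.11 in its highest probe set (limma adjusted p = 0.0996). Its other probe sets stood at 0.15 and 0.067, not called. The folate receptor relatives, folate carriers, Izumo1 and the precursor gene of a Gpr83 ligand (9 probe sets of 6 genes) had 0 calls as well. At an unadjusted p under 0.05, 1 was higher and 0 lower for RORγt deficiency in DMSO, beside 3.9% and 5.16% of all. It was Folr2, at 0.37 ± 0.15 (limma adjusted p = 0.491).

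**Figure D5:**
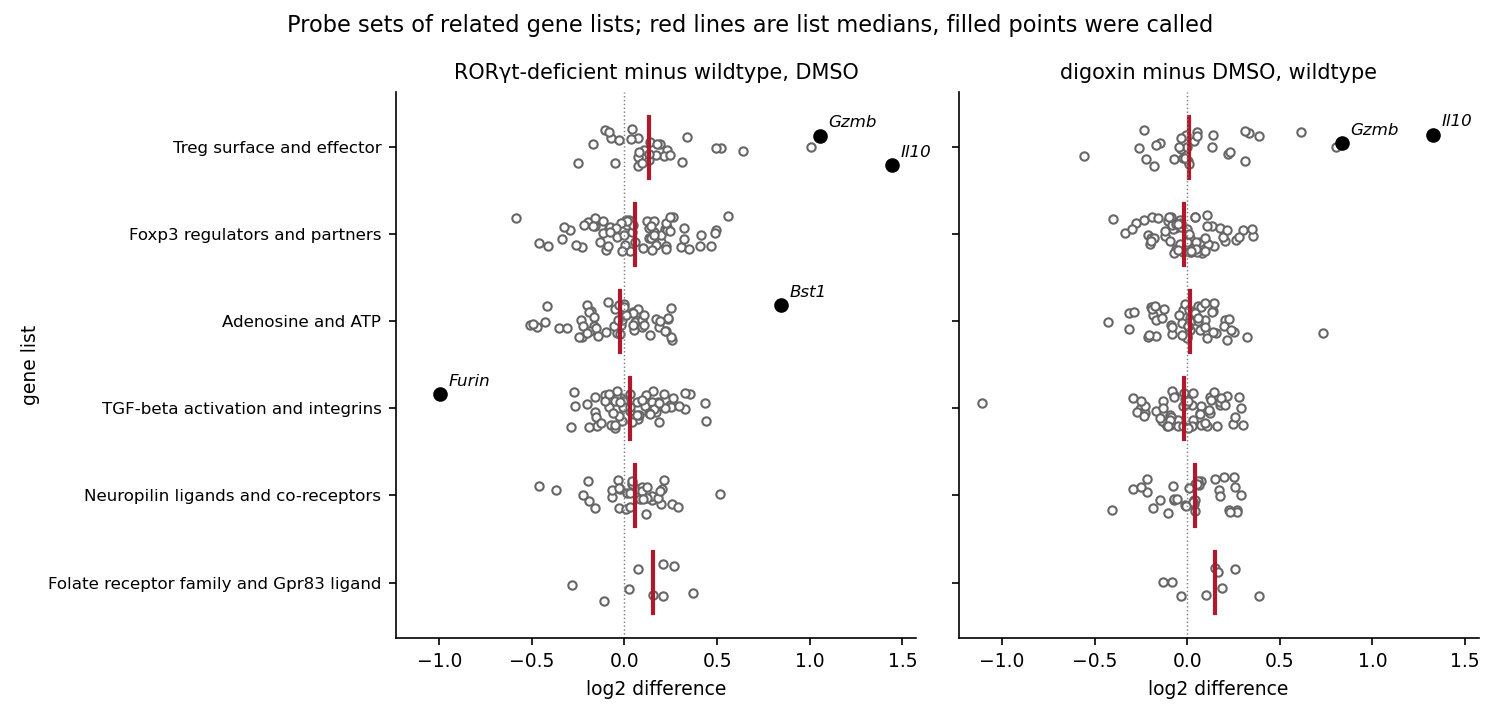
Points are log2 differences of single probe sets in 6 related gene lists for RORγt deficiency in DMSO (left) and digoxin in wildtype cells (right), with jitter along the vertical axis, and red lines are list medians. The called probe sets, filled and named, are Il10, Gzmb, Bst1 and Furin on the left and Il10 and Gzmb on the right, and medians lie between -0.022 and 0.15.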

How the data were processed

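Per the series' design text, TRIzol-extracted RNA went onto Affymetrix arrays (the Mouse Genome 430 2.0 type), analysed in GeneSpring GX 11.5, and per the submitters' processing notes intensities were summarised with RMA. The authors deposited log2 values of 45101 probe sets; the 2 wildtype DMSO values of each sum to 0 within 1e-06, so they are centred on that pair, a step no label records. No source used here names the genome build behind the probe annotation.

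After 64 control probe sets were left out, 45037 entered a limma fit (limma 3.58.1, R 4.3.3; 4 group means, all 8 arrays, 4 residual and 5.8 prior degrees of freedom, eBayes, two-sided, Benjamini-Hochberg within each of 5 comparisons, threshold 0.05) and the test was checked on simulated data. The test ran over probe sets because the members are probe sets. The annotation gave 1 symbol to 34945 of these probe sets, several to 932 and none to 9160. RefSeq (GRCm38.p6) matched 34741 of those with 1 symbol and served for current symbols and neighbours. Values after ± are limma SEs; the number of arrays limits the precision. Fold changes are 2 to the power of the log2 difference.

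The members and lists were chosen with earlier results of these data known. Named were all member probe sets, up to 4 probe sets of each list by smallest adjusted p, Il17a, Cd4 and Cd3e, the 3 nearest measured genes on each side of a member, and the 3 genes most correlated with Foxp3 and with the 3 members of smallest moderated F p. Alternatives left out each array, added the replicate number as a block, fitted only the compared groups, changed the normalisation, left out dim probe sets, weighted arrays or took 1 probe set per gene.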

Additional observations from a re-analysis of the deposited data

How the results depend on the processing

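With 2 arrays a group, counts of called probe sets moved with single arrays. Leaving out 1 array at a time, where a lone array is assumed to vary like the other groups, gave 21 to 318 calls for RORγt deficiency in DMSO (275 with all arrays; 25 without wildtype DMSO array 1, 21 without array 2, 69 and 33 without RORγt-deficient DMSO arrays 1 and 2), 3 to 25 for digoxin in wildtype cells (28), 0 to 1 for digoxin in deficient cells (1), 0 to 1 for RORγt deficiency under digoxin (1) and 0 to 1 for the difference of the digoxin effects (0). With only the compared groups the counts were 81, 15 and, for RORγt deficiency under digoxin, 0. Quantile normalisation gave 5, 5, 0 and 0. It was run on the centred values and gives all arrays the same spread. Before it, the SD over probe sets was 0.0945 on the wildtype DMSO arrays, centred on their own mean, and 0.17 to 0.28 on the others. Its counts therefore also reflect this change of scale and cannot show by themselves how far the calls depend on normalisation. The Nt5e call (1 of 22) became 0 without each array, with only the compared groups and after quantile normalisation (adjusted p = 0.578), and 0 with 1 probe set per gene, where another Nt5e probe set stands for the gene. It held in 4 of 14 alternatives: array medians subtracted, lowest level 4 or above, array weights and the replicate block.

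Members not called had no call in any alternative, and every difference with an unadjusted p under 0.05 kept its sign. Bst1 and Furin were called in 7 and 8 of 15 alternatives for RORγt deficiency, Il10 and Gzmb in 12 and 11, and for digoxin in 11 and 5. The replicate block gave 308 calls for RORγt deficiency and 36 for digoxin in wildtype cells. Deviations of same-numbered arrays correlated at 0.30 to 0.46 in the 3 pairs of groups without wildtype DMSO and from -0.24 to -0.13 in the 3 pairs with it. Not every pair was above 0.1 and no label says what a number marks, so the numbers were not taken to pair the arrays.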

Other observations

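The genes whose values over the 8 arrays were most like those of a member are given as a description; all share the same arrays and the centring on wildtype DMSO, and they are the 3 highest of 6241 probe sets (6243 for Foxp3) with an SD of at least 0.2. Gpr83 1423415_at was closest to Chit1 (Pearson r = 0.989), Asb2 (0.988) and Mgst2 (0.988). Chit1, a chitinase gene, averaged 0.99 in RORγt-deficient digoxin cells, 0.74 in RORγt-deficient DMSO cells and 0.63 in wildtype digoxin cells, relative to wildtype DMSO. Nt5e 1428547_at was closest to Gja1 (0.986), which encodes a connexin, Tcn2 (0.983) and Ccn4 (0.982). Nrp1 1448943_at was closest to Cited2 (0.967), Resf1 (0.947) and Mir155hg, the host gene of miR-155 (0.936), which averaged 0.15 in RORγt-deficient digoxin cells, 0.56 in RORγt-deficient DMSO cells and 0.065 in wildtype digoxin cells. For Foxp3, for which no difference was called, the closest were 4933416I08Rik (0.931), Serpinb9d (0.917) and Cryba4 (0.895).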
